A study of Homo sapiens with 68 samples.

Results

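HNRNPC, identifier ENSG00000092199, encodes the heterogeneous nuclear ribonucleoprotein C that 1 of the 4 antibodies in these libraries precipitates, so its transcript was read here as an RNA bound by its own protein product and by hnRNPA1, hnRNPI and RBFOX2. Every peak whose deposited name carries this identifier was taken, which gave 5847 of the 15800601 peaks in 68 lists. The peaks lie on the minus strand of chromosome 14 and span chr14:21677413-21737591 (hg19), a stretch of 60.2 kb. Positions below are distances in kb from the 5′ end of that listed span, in the direction of transcription. No hg19 gene annotation was used here, so positions are not assigned to exons or introns.

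hnRNPc is an abundant nuclear protein that packages newly made transcripts and prefers runs of uridines, and it limits the use of cryptic exons such as those from antisense Alu elements. hnRNPA1 and hnRNPI (the polypyrimidine tract binding protein PTBP1) are splicing regulators that bind UAG-containing and pyrimidine-rich RNA, and RBFOX2 is a splicing regulator that binds UGCAUG. Much of their binding is to introns of transcripts still in the nucleus.

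The libraries were made by TLC-CLIP, in which RNA is crosslinked to protein by ultraviolet light in living cells, the protein is precipitated with an antibody and the attached RNA fragments are sequenced. The cells were HEK293T, an established line from human embryonic kidney, and the libraries form 34 groups with 2 replicates each. The 4 proteins were each profiled from 50000 crosslinked cells at 0.005 U RNase in 3 protocols: without purification on a polyacrylamide gel (PAGE), without PAGE but with RecJ (an exonuclease that removes single-stranded DNA such as leftover adapter), and with PAGE. hnRNPA1 and hnRNPc were also profiled with PAGE at 0.025 U RNase, hnRNPc and RBFOX2 with PAGE from 10000 cells at 0.001 U and 1000 cells at 0.0001 U, and hnRNPc without PAGE from samples titled 5k and 500, with and without RecJ, whose cell number label nevertheless reads 50000. Each protein also had libraries titled noUV at 50000 cells and 0.005 U RNase, with and without PAGE. They are read here as not crosslinked from their titles and the series' design, which names non-crosslinked samples, although their labels carry the same crosslinking protocol as the other libraries. In addition, 8 libraries of the hnRNPc antibody at 10000 cells and 0.001 U came from 4 regions of the gel. The noUV libraries, those from 10000 and 1000 cells and those of gel regions have sample numbers in a block apart from all others. The labels name no batch, so a difference between these blocks cannot be told apart from crosslinking or, with PAGE, from cell number. The labels do not say whether replicates were separate cultures, so the p-values measure the spread between these libraries, which may be technical.

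The lists outside the gel regions hold 3268 to 523402 peaks. The hnRNPc library with PAGE at 50000 cells, replicate 1, stands apart with 3268 peaks against 214849 in replicate 2, and the comparisons with PAGE and the likeness to other genes are given with and without it. Total sequencing depth is unknown, since the lists hold only called peaks. The level of HNRNPC in a library is therefore its share of the listed reads, in reads per 1000000 listed reads (RPM): the last number in each peak name was read as the reads over that peak, and peaks less than 30 nt apart were joined and counted at their highest number. Levels are not corrected for the amount of the transcript in the cells. A site that is not listed may still hold reads too few to be called.

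HNRNPC took a larger share of the reads of its own protein than of those of the other 3 proteins. Without PAGE and without RecJ, HNRNPC had 1844 and 1662 RPM in the 2 hnRNPc libraries (1753 ± 129, SD, n = 2). It had 791 and 843 in hnRNPA1, 254 and 247 in RBFOX2, and 136 and 125 in hnRNPI. The order hnRNPc, hnRNPA1, RBFOX2, hnRNPI had no overlap between neighbouring groups. The lists held 167 and 173 HNRNPC peaks for hnRNPc, 134 and 132 for hnRNPA1, 61 and 58 for RBFOX2, and 41 and 42 for hnRNPI. The peaks covered 18.1% and 16.7% of the span in hnRNPc and 16.9% and 17.5% in hnRNPA1, so hnRNPc and hnRNPA1 covered much the same length while the RPM in hnRNPc were higher. RBFOX2 peaks covered 6.56% and 5.88%, and hnRNPI peaks 4.42% and 4.31%.

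On the log2(RPM + 1) scale, hnRNPc was 2.55 above the mean of the other 3 proteins (SE 0.058, limma adjusted p = 1.28e-07). Of the 14613 genes tested, 41.6% were called higher in hnRNPc and 25.7% lower, so the call itself is common. By the size of the difference HNRNPC ranked 239 of 14613, and the median over all genes was 0.26. With each library centred on its median gene the difference was 2.39. Against single proteins, hnRNPc was 1.10 above hnRNPA1 (adjusted p = 2.35e-05), 2.80 above RBFOX2 (adjusted p = 1.83e-08) and 3.74 above hnRNPI (adjusted p = 2.25e-08). Genes called higher were 20.7%, 52.9% and 36.3% of those tested in these 3 contrasts.

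Counting peaks in place of reads narrowed the difference. In peaks per 1000000 listed peaks, hnRNPc was 0.72 above the mean of the other proteins (adjusted p = 0.000798) and differed from RBFOX2 by -0.0026 (adjusted p = 0.987). RBFOX2 itself was 1.19 below the mean of the other 3 in RPM (55.2% of genes called lower) and 0.72 above it in peaks per 1000000. The RBFOX2 lists are shorter, with 157375 and 161434 peaks in all against 441289 and 471844 for hnRNPc.

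Per length, HNRNPC was among the most heavily listed genes of the hnRNPc libraries. Ranked by RPM per kb of listed span, among genes with a span of at least 1 kb, it was 28th of 13295 and 34th of 13488 in the 2 hnRNPc libraries. It was 138th of 14201 and 113th of 14263 in hnRNPA1. In RBFOX2 it was 2184th of 12451 and 2266th of 12531, and in hnRNPI 2106th of 13458 and 2362nd of 13366.

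The order of the proteins was the same in the other 2 protocols. With RecJ, HNRNPC had 1741 and 1570 RPM in hnRNPc, 763 and 794 in hnRNPA1, 268 and 275 in RBFOX2, and 152 and 129 in hnRNPI, and again no group overlapped its neighbour. The difference between hnRNPc and the mean of the others was 2.41 (SE 0.072, limma adjusted p = 2.81e-07), where 40.4% of 14414 genes were called higher. With PAGE, HNRNPC had 8277 and 2218 RPM in hnRNPc, 973 and 978 in hnRNPA1, 268 and 307 in RBFOX2, and 157 and 136 in hnRNPI. The value of 8277 is that of the library with 3268 peaks, of which 31 lie in HNRNPC. The fitted difference with PAGE was 3.63 (SE 0.456, limma adjusted p = 0.00324, 2.02% of 13775 genes called higher). Without that library it was 2.68 (adjusted p = 7.42e-06), without replicate 2 it was 4.58 (adjusted p = 5.37e-09), and with each library centred on its median gene it was 6.13 and did not pass the threshold (adjusted p = 0.110).

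Over the 3 protocols together, the mean difference was 2.86 on the log2 scale in an exact two-sided permutation test within protocols (p = 4.56e-05, the smallest that the 21952 relabellings can give, and 0.000137 after Benjamini-Hochberg adjustment over 3 permutation tests). All 6 hnRNPc libraries were above all 18 others of their protocols. Without the library of 3268 peaks the mean difference was 2.55. The relabelling treated libraries as exchangeable and could split the replicates of a protein. Its p-value therefore describes libraries and cannot measure the spread between proteins. The same libraries gave the differences within single protocols above, so the test adds no independent evidence. The share of all genes that reach this p-value was not computed.

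**Figure D1:**
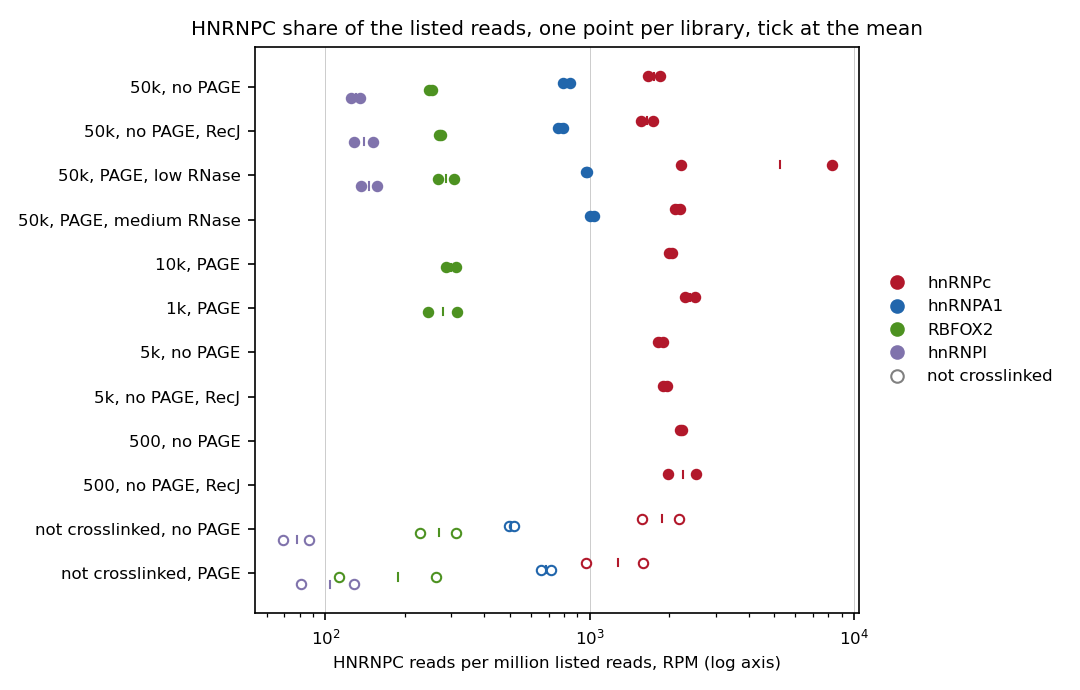
HNRNPC RPM on a log axis, with 1 point per library, coloured by protein, and a tick at the mean of the 2 replicates; rows are protocols and open points are libraries without crosslinking. The hnRNPc points lie to the right of the other proteins in each row, the library at 8277 stands alone, and among the rows without crosslinking hnRNPI lies lowest without PAGE.

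The 4 proteins were listed at different places along the transcript. The reads of hnRNPc lay mainly in the 5′ part: 70.0% and 70.3% of them fell between 2 and 24 kb, spread so that its strongest joined cluster held 2.41% and 2.55% of its reads. Between 34 and 40 kb hnRNPc had 0% and 0.833% of its reads. The hnRNPA1 libraries had 9.73% and 10.2% there and RBFOX2 11.8% and 11.2%. With 2.605% and 0.783%, hnRNPI was low there too and overlapped hnRNPc. These windows were chosen after the profiles were seen.

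hnRNPA1 reads were spread over the whole span with their largest 2 kb bin at 10 to 12 kb, which held 13.4% ± 2.7 (SD, n = 2). hnRNPI was the most concentrated: the bin from 12 to 14 kb held 35.9% and 34.1% of its reads. RBFOX2 reads were weighted to the 3′ end, with 24.9% and 28.3% in the last 4 kb against 5.61% and 6.49% in hnRNPc, 8.76% and 9.09% in hnRNPA1, and 13.9% and 13.2% in hnRNPI. With RecJ the last 4 kb held 32.5% and 31.5% of RBFOX2 reads, 6.23% and 7.19% of hnRNPc reads, 10.6% and 8.94% of hnRNPA1 reads, and 13.6% and 16.9% of hnRNPI reads.

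**Figure D2:**
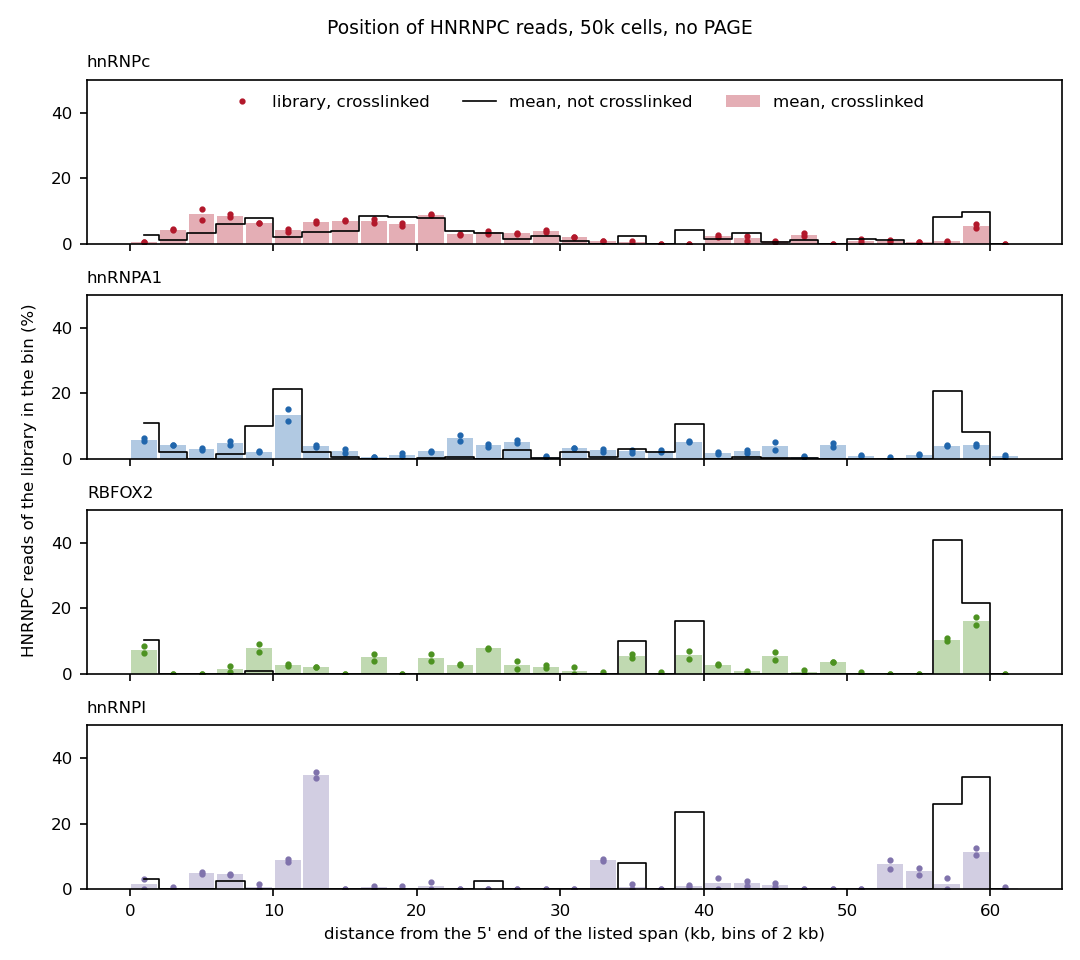
Share of a library's HNRNPC reads in each 2 kb bin, in percent, against distance from the 5′ end of the listed span in kb, for the 4 proteins at 50000 cells without PAGE; bars are means of the 2 crosslinked libraries, points the single libraries, and the black line the mean of the 2 libraries without crosslinking. hnRNPc is broad between 2 and 24 kb and almost empty from 34 to 40 kb, where the hnRNPI bars are low too. hnRNPI has 1 tall bin at 12 to 14 kb, and the black line rises in the last 4 kb in all 4 panels.

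Joining the clusters of the 8 crosslinked libraries without PAGE or RecJ gave 198 sites in HNRNPC. Both replicates listed 80 sites for hnRNPc, 76 for hnRNPA1, 27 for RBFOX2 and 16 for hnRNPI. Of these, 28 of the hnRNPc sites, 29 of the hnRNPA1 sites, 5 of the RBFOX2 sites and 4 of the hnRNPI sites were listed in no library of another protein. Over the sites of all genes that both replicates of a protein listed, the shares found for no other protein were 55.3%, 52.2%, 35.3% and 51.8%, in the same order. In HNRNPC 5 of the 198 sites were listed in all 8 libraries, against 0.173% of the 1488029 sites of all genes. They lie at 6.6 to 7.0 kb, at 9.6 to 10.7 kb and, for 3 of them, between 58.0 and 58.4 kb near the 3′ end. The site at 9.6 kb is 1112 nt wide. The sites of all genes were not matched to those of HNRNPC for width or reads, and the difference was not tested.

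The sites of hnRNPc with the most reads were in the 5′ part. The strongest was chr14:21731576-21732106 (5.5 to 6.0 kb), at 53.3 and 74.8 RPM in hnRNPc, 5.25 and 3.75 in hnRNPA1, 2.46 and 1.96 in hnRNPI, and not listed in RBFOX2. hnRNPc was 4.63 above the mean of the others there on the log2(RPM + 1) scale (SE 0.224, limma adjusted p = 0.000271). A second, chr14:21722304-21722770 (14.8 to 15.3 kb), had 53.7 and 40.9 in hnRNPc and 8.50 and 7.50 in hnRNPA1, and was listed in neither hnRNPI nor RBFOX2 (adjusted p = 0.00023). At both sites the hnRNPc libraries lay above all others.

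hnRNPc and hnRNPI both had many reads in 1 wide joined site. chr14:21724819-21725671 (11.9 to 12.8 kb) had 42.5 and 72.0 RPM in hnRNPc and 40.6 and 41.7 in hnRNPI, so the hnRNPc values lay just above those of hnRNPI. It was at 5.05 and 2.95 in RBFOX2 and was not listed in hnRNPA1. It made up 31.5% of hnRNPI's mean reads over all HNRNPC sites and 3.27% of hnRNPc's. The site is 853 nt wide and sums all clusters of a library that fall in it. The strongest single hnRNPI cluster, from 12.1 kb, held 18.9% and 20.0% of the HNRNPC reads of its library. Whether hnRNPc and hnRNPI were listed at the same place inside the site was not examined. The next hnRNPI sites were chr14:21704886-21705452 (32.1 to 32.7 kb), at 11.8 and 11.4 in hnRNPI, 9.50 and 10.9 in hnRNPA1 and unlisted in hnRNPc and RBFOX2, and chr14:21723964-21724272 (13.3 to 13.6 kb), at 11.99 and 8.99 in hnRNPI and 18.9 and 29.4 in hnRNPc. At 32.1 kb hnRNPc was called lower (adjusted p = 0.000561). At 13.3 kb it was called higher (adjusted p = 0.0177), but the difference of 2.94 became 0.23 in the RecJ libraries (adjusted p = 0.907). It also missed the threshold without any 1 of the hnRNPc, hnRNPI or RBFOX2 libraries (adjusted p 0.0516 to 0.158).

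The strongest hnRNPA1 site was chr14:21726897-21728008 (9.6 to 10.7 kb), at 71.5 and 47.3 RPM in hnRNPA1, 24.7 and 16.4 in hnRNPc, 11.4 and 15.3 in RBFOX2, and 7.22 and 4.41 in hnRNPI. The hnRNPA1 libraries lay above the rest, and hnRNPc did not differ from the mean of the others beyond the threshold (0.25, adjusted p = 0.536). The site beside it, chr14:21725730-21726136 (11.5 to 11.9 kb), was near equal in hnRNPA1 (32.3 and 31.4) and hnRNPc (40.0 and 36.6) and unlisted in the other proteins. The third, chr14:21735867-21736199 (1.4 to 1.7 kb), had 20.4 and 28.6 in hnRNPA1, 0 and 1.97 in RBFOX2, and was listed in no hnRNPc or hnRNPI library (adjusted p = 0.0138, hnRNPc lower). That call was lost without either hnRNPc library (adjusted p = 0.101 and 0.0984).

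The 3 leading RBFOX2 sites were spread from end to end. chr14:21737154-21737583 (0.0 to 0.4 kb) had 16.2 and 12.3 RPM in RBFOX2, 0 and 2.29 in hnRNPI, and was unlisted in hnRNPc and hnRNPA1 (adjusted p = 0.0267, hnRNPc lower). That call was lost with a pseudocount of 0.25 (adjusted p = 0.0624), without either hnRNPA1 library (0.0696 and 0.0697) and without either hnRNPc library (adjusted p of at least 0.147). chr14:21712841-21713200 (24.4 to 24.8 kb) had 12.9 and 14.8 in RBFOX2, 32.5 and 20.2 in hnRNPc, and 9.75 and 10.2 in hnRNPA1. chr14:21679562-21679619 (58.0 kb) had 13.4 and 13.5 in RBFOX2, 12.8 and 19.1 in hnRNPc, 7.13 and 6.68 in hnRNPA1, and 3.23 and 2.94 in hnRNPI. RBFOX2 and hnRNPc overlapped at that last site, and at 24.4 kb hnRNPc lay above RBFOX2.

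Of the 198 sites, 79 were listed in at least 3 of the 8 libraries, the filter for testing. Such a site needs reads in more than 1 protein, so the sites listed for a single protein are not among them. Of the 79, 31 were listed in exactly 3 libraries, for which both libraries of 1 protein and 1 other library suffice. hnRNPc was called higher than the mean of the other 3 at 49 of the 79 and lower at 9, against 24.2% higher and 15.4% lower among the 237979 sites of all genes. An unlisted site entered the fit as 0 RPM, and 2 unlisted replicates add no spread. A call can therefore reflect listing against no listing. At 11.5 kb, where hnRNPA1 and hnRNPc were near equal, hnRNPc was called 3.6 higher, with hnRNPI and RBFOX2 entered as 0. The median difference over the 79 was 2.46, against -0.0017 over all sites. With sites listed in at least 2 libraries, which admits those of 1 protein, 77 of 153 were called higher and 47 lower, against 25.3% and 37.9% of all sites under that filter. With at least 5 libraries the counts were 18 and 1 of 22, against 19.2% and 21.9%. Without hnRNPc replicate 1, 31 of the 58 sites left to test were called higher and 6 lower, against 20.2% and 12.2% of all sites. Without replicate 2 the counts were 28 and 5 of 58, against 20.6% and 12.7%.

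The calls were then counted by place. Between 0 and 31 kb, hnRNPc was called higher at 39 of 54 tested sites and lower at 4. Between 31 and 50 kb it was called higher at 3 of 12 and lower at 5, and from 50 kb on it was called higher at 7 of 13 and lower at none. These bounds were set after the sites were seen, so the contrast between the stretches is partly built in and was not tested. Over the sites of all genes 24.2% were called higher and 15.4% lower, and 3 of 12 is close to the former. The sites called lower with the largest differences were those at 32.1, 44.4, 41.9, 1.4 and 49.5 kb, and hnRNPc was not listed at any of them. At chr14:21692594-21693141 (44.4 to 45.0 kb) hnRNPA1 had 13.8 and 31.3 RPM and RBFOX2 12.9 and 10.6. At chr14:21695328-21695694 (41.9 to 42.3 kb) hnRNPA1 had 18.0 and 10.9 and RBFOX2 4.29 and 9.10. At chr14:21687890-21688112 (49.5 to 49.7 kb) hnRNPA1 had 12.1 and 8.79 and RBFOX2 1.52 and 3.20, so the reads at these 3 places were mainly from hnRNPA1 and RBFOX2. The other sites with the largest differences upward were chr14:21718716-21719375 (18.2 to 18.9 kb, 56.5 and 33.6 in hnRNPc), chr14:21719558-21719949 (17.6 to 18.0 kb, 48.4 and 43.9) and chr14:21709183-21709366 (28.2 to 28.4 kb, 32.0 and 22.0), each listed in only 1 library of another protein.

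The same sites were then read in the 8 RecJ libraries, which had not been used to define them. hnRNPc was called higher at 42 of the 79 sites and lower at 16, against 18.2% and 23.1% of all sites. All 42 sites called higher with RecJ were also called higher without it, and all 9 sites called lower without RecJ were called lower with it. The share of matching calls over the sites of all genes was not computed, so this match has no background to be read against. The 1 site called in opposite directions was chr14:21734716-21734800 (2.8 to 2.9 kb), named after its values were seen. Without RecJ it had 10.2 and 9.88 RPM in hnRNPc and 6.13 and 8.08 in hnRNPA1, and its difference of 2.46 became -0.998 with RecJ (adjusted p = 0.0103).

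**Figure D3:**
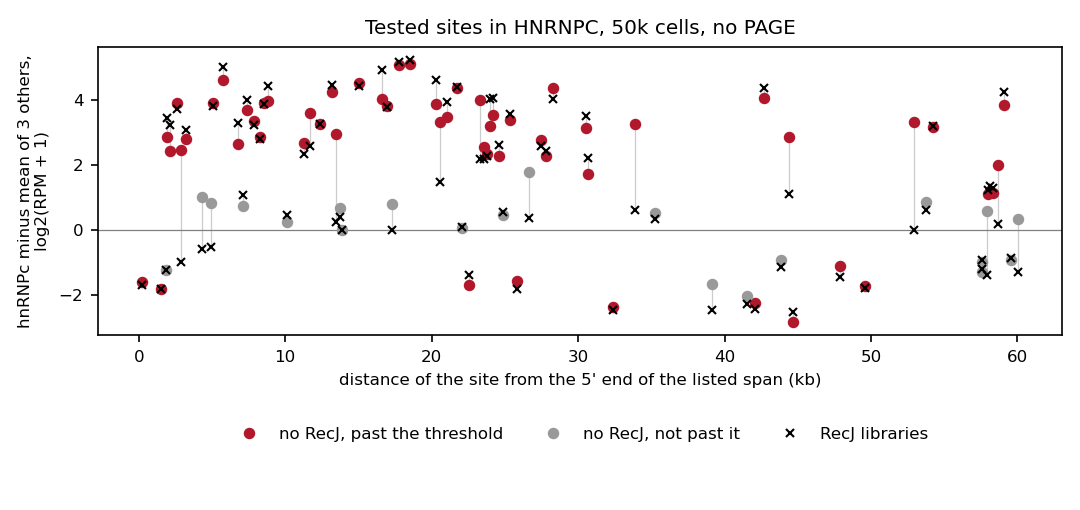
Difference between hnRNPc and the mean of the other 3 proteins at the 79 tested sites, in log2(RPM + 1), against distance from the 5′ end of the listed span in kb; filled points are libraries without RecJ, coloured where the test passed, and crosses are the RecJ libraries at the same site. Most points up to 31 kb lie above 0 and the points from 31 to 50 kb lie on both sides of it.

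Libraries made without crosslinking still listed HNRNPC. In every comparison below of noUV with crosslinked libraries, crosslinking cannot be told apart from the separate block of sample numbers. Without PAGE, it had 2187 and 1577 RPM in the noUV libraries of hnRNPc, which enclose the crosslinked values of 1844 and 1662. It had 495 and 517 in hnRNPA1, 86.6 and 68.9 in hnRNPI and 313 and 228 in RBFOX2. The hnRNPA1 and hnRNPI libraries lay below their crosslinked counterparts, and those of RBFOX2 enclosed them. The noUV lists were shorter, with 44086 to 278452 peaks against 157375 to 523402, and HNRNPC peaks covered less of the span: 12.2% and 9.92% in hnRNPc, 4.18% and 4.58% in hnRNPA1, 0.688% and 1.14% in hnRNPI, and 1.38% and 1.02% in RBFOX2.

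For hnRNPc the noUV libraries differed from the crosslinked ones by 0.09 on the log2 scale (95% interval -0.32 to 0.50, limma adjusted p = 0.826, with 7.41% of genes called higher and 8.32% lower). The sign turned to -0.17 with reads summed over all peaks and to -0.15 without noUV replicate 1. For hnRNPA1 the difference was -0.69 (adjusted p = 0.0197, with 13.2% of 13286 genes called lower), and it missed the threshold without any 1 of its 4 libraries (adjusted p 0.0683 to 0.118). For hnRNPI it was -0.75 (adjusted p = 0.00373), where the median gene fell by 1.47 and 53.0% of genes were called lower, so that with libraries centred on the median gene it was 1.17 (adjusted p = 0.00296), and in peaks per 1000000 it was 0.67. For RBFOX2 it was 0.09 (adjusted p = 0.741), and 0.95 after centring (adjusted p = 0.0196). The change in hnRNPc less the mean change in the other 3 was 0.53 and did not pass the threshold (adjusted p = 0.0808, with 25.2% of genes called higher), and it was -0.29 after centring. It passed without noUV replicate 2 of hnRNPc (0.77, adjusted p = 0.0312), noUV replicate 1 of hnRNPI (0.59, adjusted p = 0.0359) or noUV replicate 1 of RBFOX2 (0.61, adjusted p = 0.0304).

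The place of the reads differed as well. Without PAGE, the last 4 kb held 12.3% and 23.2% of HNRNPC reads in the noUV libraries of hnRNPc, 32.0% and 25.6% in hnRNPA1, 73.3% and 47.0% in hnRNPI, and 61.2% and 63.6% in RBFOX2. For each protein both values were above both crosslinked values. The noUV shares of hnRNPI rest on only 90 and 115 HNRNPC reads and those of RBFOX2 on 281 and 264. Averaged over the 4 proteins the rise was 28.5 percentage points in an exact two-sided permutation test within proteins (p = 0.00154, the smallest that 1296 relabellings can give, adjusted p = 0.00231). The rise was 11.7 points in hnRNPc, 19.9 in hnRNPA1, 46.6 in hnRNPI and 35.8 in RBFOX2. This window and its test were chosen after the profiles were seen.

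In RPM, the last 4 kb rose from 103 and 108 to 269 and 365 in hnRNPc, while the rest of the transcript went from 1741 and 1554 to 1918 and 1212. In hnRNPA1 the last 4 kb went from 69.3 and 76.6 to 158 and 132 and the rest from 721 and 766 to 337 and 384. In RBFOX2 the last 4 kb went from 63.1 and 69.9 to 192 and 145 and the rest from 190 and 177 to 121 and 82.8. In hnRNPI the rest went from 117 and 109 to 23.1 and 36.5. Outside the last 4 kb the noUV values of hnRNPA1, RBFOX2 and hnRNPI were thus all below the crosslinked ones, and those of hnRNPc enclosed them.

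With PAGE the pattern was less even. The noUV libraries had 1599 and 972 RPM in hnRNPc, 715 and 655 in hnRNPA1, 113 and 263 in RBFOX2, and 129 and 80.6 in hnRNPI, all below the crosslinked libraries with PAGE. The last 4 kb held 12.9% and 32.5% in hnRNPc, 18.5% and 20.1% in hnRNPA1, and 62.8% and 73.8% in RBFOX2, above the crosslinked 2.81% and 4.36%, 5.91% and 5.31%, and 18.9% and 17.1%. In hnRNPI the values were 0% and 70.0% around the crosslinked 7.49% and 11.2%. Each noUV list of hnRNPI held only 4 HNRNPC peaks, with 20 HNRNPC reads. The mean rise was 27.2 points in the exact two-sided permutation test (p = 0.00772, adjusted p = 0.00772), and between 18.4 and 35.9 when any 1 library was left out. Without the hnRNPc library of 3268 peaks it was 27.0. This test, too, was added after the profiles were seen, and its adjusted p-value does not cover the choice of window.

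**Figure D4:**
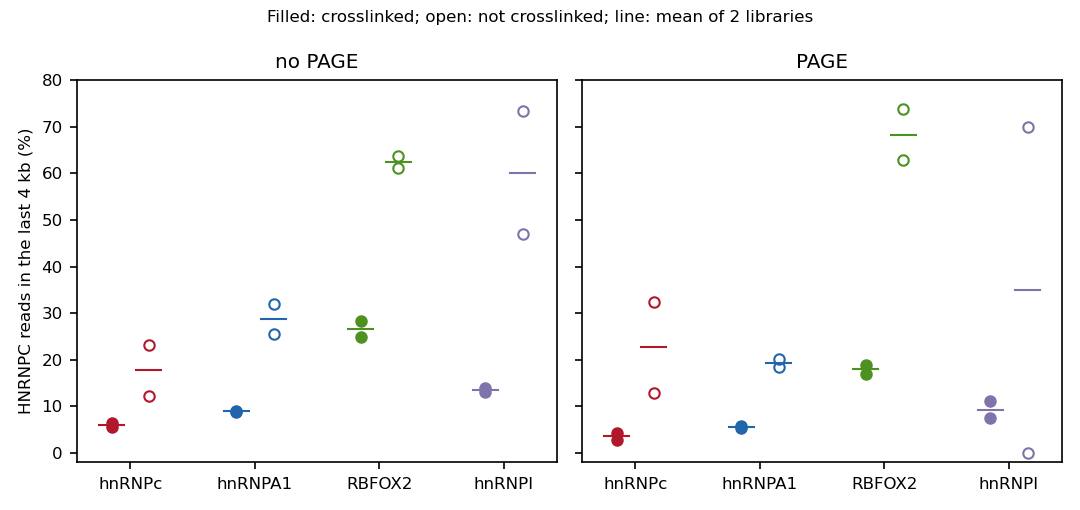
Share of HNRNPC reads in the last 4 kb of the listed span, in percent, by protein, without PAGE (left) and with PAGE (right); filled points are crosslinked libraries, open points libraries without crosslinking, and lines the means of 2. Without PAGE the open points lie above the filled ones for each protein, and with PAGE the hnRNPI open points lie at 0% and 70.0%.

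Single sites behaved differently without crosslinking. The hnRNPI site at 11.9 to 12.8 kb, at 40.6 and 41.7 RPM in the crosslinked libraries without PAGE, was listed in neither noUV library of hnRNPI. It stayed listed in the noUV libraries of hnRNPc, at 56.1 and 36.8. The leading hnRNPA1 site at 9.6 to 10.7 kb was at 112 and 126 in the noUV libraries of hnRNPA1, above its crosslinked 71.5 and 47.3. Of the RBFOX2 sites, that at 24.4 kb was unlisted in both noUV libraries of RBFOX2, while that at 0.0 kb was at 26.7 and 28.4 and that at 58.0 kb at 22.3 and 13.8. The site at 0.0 kb, unlisted in the crosslinked hnRNPc libraries, was at 30.6 and 61.6 in the noUV ones. Of the sites listed in both crosslinked replicates of a protein, both noUV libraries listed 39 of 80 for hnRNPc, 26 of 76 for hnRNPA1, 10 of 27 for RBFOX2 and 3 of 16 for hnRNPI. Over the sites of all genes the shares were 20.0%, 25.5%, 19.3% and 6.16%. A cluster that overlapped several sites was counted in full at each, here and over all genes. The neighbouring sites at 15.4 and 15.5 kb thus have the same noUV values in hnRNPc, 32.7 and 18.4 RPM. These noUV lists are the shorter ones described above, and the differences from all sites were not tested.

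Fewer cells left HNRNPC prominent in hnRNPc libraries. Without PAGE or RecJ it had 1816 and 1895 RPM in the libraries titled 5k and 2193 and 2245 in those titled 500, and with RecJ 1967 and 1900, and 2531 and 1980. The libraries titled 500 lay above all those titled 50k, and those titled 5k overlapped them. In a fit with RecJ as a covariate, 500 was 0.39 above 50k on the log2 scale (SE 0.062, limma adjusted p = 0.000384), where 6.37% of 13456 genes were called higher, and 5k was 0.15 above 50k (95% interval 0.03 to 0.28, adjusted p = 0.546, with 0.0595% of genes called higher). The latter passed with reads summed over all peaks (0.26, adjusted p = 0.019). The lists titled 500 were shorter, with 210295 to 307258 peaks against 379280 to 487908 for 50k, and the part of list length in the difference was not tested.

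Most hnRNPc sites were listed again in these libraries. Of the 80 sites in both 50k replicates, both replicates listed 63 in 50k with RecJ, 69 in 5k, 66 in 5k with RecJ, 58 in 500 and 56 in 500 with RecJ. With PAGE both replicates listed 57 at 0.025 U RNase, 49 from 10000 cells and 41 from 1000 cells. At 50000 cells and 0.005 U with PAGE, replicate 2 listed 55 and the library of 3268 peaks listed 20, against 35.7% and 1.22% of the hnRNPc sites of all genes. For RBFOX2, both replicates listed 20 of 27 sites from 10000 cells and 5 of 27 from 1000 cells. Over the sites of all genes, the shares listed again by both replicates of hnRNPc were 52.8%, 55.4%, 50.0%, 33.1% and 27.6% in the groups without PAGE, in the order above, and 35.4%, 26.6% and 17.8% in those with PAGE. They were 42.8% and 12.1% for RBFOX2.

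In these libraries with PAGE, HNRNPC had 1993 and 2060 RPM in hnRNPc from 10000 cells and 2506 and 2292 from 1000 cells. RBFOX2 had 311 and 286 from 10000 cells and 314 and 245 from 1000 cells, where each list held 17 HNRNPC peaks. At 0.025 U RNase the values were 2207 and 2109 in hnRNPc and 1044 and 1005 in hnRNPA1. Cell number and RNase changed together in the 10000 and 1000 cell libraries and cannot be told apart.

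By their levels over the 24 crosslinked libraries of 50000 cells, the genes most like HNRNPC were ENSG00000196584 (Pearson r = 0.986) and ENSG00000198408 (r = 0.985), among 1331 other genes listed in all 24. Without the library of 3268 peaks, 8382 other genes were listed in all 23, and these genes had r = 0.986 and 0.980 and ranked 3 and 12. The genes most like HNRNPC were then ENSG00000184575 (r = 0.987) and ENSG00000113712 (r = 0.986), so the choice depends on that library. The points share proteins and library totals and fall into 4 groups by protein, so the values describe a shared order of the proteins. ENSG00000196584 had a mean of 295 RPM in hnRNPc, 163 in hnRNPA1, 48.7 in RBFOX2 and 38.9 in hnRNPI without PAGE or RecJ.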

How the data were processed

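Peak lists of 68 TLC-CLIP libraries were used as deposited. Per the submitters' processing notes, the authors used bcl2fastq, UMI-tools 1.0.1 and STAR 2.7.3a with build hg19; the file names name CLIPper. Per the files, the deposited p-value of each peak is at most 0.00755, and the number that ends each peak name, at least 4, was read as reads over the peak; no source states its meaning. The sources used here do not say how reads that map to several places were treated, such as those from near-identical copies of HNRNPC.

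Peaks of a gene less than 30 nt apart were joined, and gene and site values were scaled to 1000000 listed reads (RPM). In libraries that did not define the sites, a cluster was counted in full at every site it overlapped by at least 1 nt. log2(value + 1) was tested with limma 3.58.1 (R 4.3.3; eBayes with trend, Benjamini-Hochberg, 0.05) over all genes listed in at least 4 of 8, 8 of 16 or 6 of 12 libraries, and over all sites listed in at least 3 of 8. A fold change on this scale understates that of low values. The fits were also run on simulated data with normal noise around the mean of each gene or site. Those data do not mimic unlisted values entered as 0, so they cannot show how reliable the site calls are. Named sites are the 3 with the highest mean in each protein, among sites in both replicates, and up to 5 with the largest called difference in each direction; sites listed in all 8 libraries were added after their values were seen. The gene, sites rule and tests were chosen with earlier results of these data known. Alternatives covered scaling, joining, p below 1e-05, filters, pseudocounts, a replicate block and leaving out each library. No peak sequence is printed.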

Additional observations from a re-analysis of the deposited data

Results flagged for a closer look

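At the higher RNase dose of 0.025 U against 0.005 U, both with PAGE and 50000 cells, the HNRNPC share moved in opposite directions in the 2 proteins measured: the ratio of the means was 0.071 on the log2 scale in hnRNPA1 (1044 and 1005 against 973 and 978 RPM) and -1.28 in hnRNPc (2207 and 2109 against 8277 and 2218). The difference between the proteins was not tested, and the hnRNPc value rests on the library of 3268 peaks, since replicate 2 alone had 2218.

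HNRNPC reads were also listed in 7 of the 8 libraries of gel regions, which enter no comparison. The region from 75 to 100 kDa had 110 reads in 17 peaks in replicate 1 and 32 reads in 6 peaks in replicate 2. The region from 150 to 250 kDa had 7 and 6 reads, that from 50 to 75 kDa 7 in each replicate, and that from 100 to 150 kDa 0 in replicate 1 and 7 in replicate 2. These lists hold 303 to 6716 peaks in all.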

How the results depend on the processing

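For the main comparisons, 179 alternative values kept their direction and side of the threshold (counts: stayed within 1.5 times), 11 counts moved further, 2 values reversed and 1 lost its call. For single contrasts and named sites, 390 were kept, 10 reversed, 20 lost the call and 5 gained it. The lost calls include 7 of 14 for the site at 13.3 kb, 5 of 10 for that at 0.0 kb and 2 of 10 for that at 1.4 kb. With PAGE, centring on the median gene took hnRNPc against the others to 6.13, past the threshold no longer, and leaving out 1 library gave 2.68 to 4.58. The difference in hnRNPc without crosslinking turned to -0.17 with reads summed over all peaks, and ranged from -0.15 to 0.32 with 1 library left out. Sites higher in hnRNPc numbered 77 with sites in at least 2 libraries, 18 with at least 5, and 28 to 46 with 1 library left out. Sites lower numbered 47 and 1 with those filters, 15 with only overlapping peaks joined, 3 with p below 1e-05, 14 with centring, 16 in the RecJ libraries and 5 to 9 with 1 library left out. The causes were not tested.

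In peaks per 1000000, RBFOX2 against the others turned to 0.72, hnRNPc against RBFOX2 to -0.0026, and the change without crosslinking to 0.029 in hnRNPA1, 0.67 in hnRNPI and -0.68 in RBFOX2. With centring that change was 1.17 in hnRNPI, and hnRNPc less the others was -0.29. Without noUV replicate 1 of RBFOX2 its change was -0.14. The site at 9.6 kb turned to -0.27 with centring and to between -0.031 and 0.53 with 1 library left out. Deviations of same-numbered replicates correlated at -0.07 to 0.12, and the main fits have no replicate term. These values do not show whether same-numbered libraries shared a culture or a batch. With a replicate block no call on the gene changed, and 50 sites were higher and 10 lower. The last 4 kb with PAGE could not be recomputed at p below 1e-05, since at least 1 library kept no HNRNPC peak. The lists hold called peaks only, so low sites in short lists are beyond their depth.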
